A study of Mus musculus with 4 samples.

Results

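Genomic imprinting silences a gene on the chromosome inherited from one parent, so that only the maternal or the paternal copy is transcribed. The silent state is carried by DNA methylation of CpG dinucleotides at control regions that is set in the germ line and kept through cell division. Many imprinted genes act on growth, and they lie in clusters in which neighbours share a control region. The arrays measure total RNA of a gene and do not tell its parental copies apart.

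The 10 imprinted genes described here are H19, Igf2, Peg3, Mest, Dlk1, Meg3, Plagl1, Grb10, Ndn and Cdkn1c, and every probe set listed with 1 of them alone was taken. This gave 36 of the 45037 probe sets on the array and 9 of the 10 genes, out of 18193 genes with a probe set of their own. H19 had none, because its probe set is also listed with Mir675, the microRNA gene inside it. That shared probe set, which names neither gene, had an intensity of 5 in each line.

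RNA came from 4 immortalized melanocyte lines established from the skin of C57BL/6J pups aged 3 days, with 1 Affymetrix array per line, and all were grown in 10% serum with 200 nM TPA, a phorbol ester. bcat* lines carry a transgene for a stable, transcriptionally active β-catenin that acts in the melanocyte lineage, and WT lines do not. Line 10d is bcat* and line 9v is WT in both the labels and the methods text of the study. Lines 13d and 14d are bcat* and WT by the labels but WT and bcat* by the methods text, so that every line is given here by its name. A supplementary figure legend of the study gives these lines the genotypes of the methods text. By the labels, lines 10d and 9v are male and lines 13d and 14d female, while the methods text gives male mice. Xist, the RNA that coats the inactive X chromosome, had intensities of 4, 2124, 1768 and 4 in lines 10d, 13d, 14d and 9v, and the Y-linked genes Eif2s3y, Kdm5d and Uty were at or above 117 in lines 10d and 9v and at or below 13 in lines 13d and 14d. These levels match the labelled sex in all 4 lines.

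The authors deposited an intensity for each probe set, background-corrected and normalized with GCRMA, as a whole number on a linear scale. A gene was taken as on in a line where its brightest probe set, by the mean log2 value over the lines, had an intensity of 32 or more, and as off below that level. Between 35.8% and 36.1% of probe sets reached this level on each array. An off value was set to 32 before any ratio between lines, which makes the ratio a lower bound, written with "at least". Each line was hybridised to a single array, so that values of single lines have no error and no replicate check. Levels are compared between lines within a probe set, not between probe sets. Fewer cells with a transcript and less of it in each cell cannot be told apart in RNA of a whole culture. Of 12 melanocyte markers, 11 were on in every line, among them Dct, Tyrp1, Pmel and Sox10, and Ednrb was at 29 in each by the probe set that stands for it, while 1 of its 3 probe sets reached 34. Of 9 measured fibroblast markers, 2 were on in any line, Col1a2 (80, 24, 17 and 175 in lines 10d, 13d, 14d and 9v) and Postn (34, 61, 20 and 38), while Col3a1 and Dcn were at or below 8 in all lines.

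Of the 9 measured imprinted genes, 5 were on in line 10d, 4 in line 13d, 4 in line 14d and 3 in line 9v. Grb10, Mest and Plagl1 were on in all 4 lines, 3 of 9 genes against 45.8% of all genes. Igf2, Dlk1, Meg3 and Cdkn1c were off in all 4 lines, 4 of 9 against 48.2%. Peg3 and Ndn were on in some lines and off in others, 2 of 9 against 6.00%. In 4 of the 9 genes, against 1.82% of all genes, 1 line lay at least 4-fold from each of the other lines, and it was a different line each time. Line 10d stood apart for Peg3, line 9v for Ndn, line 14d for Grb10 and line 13d, at the 4-fold threshold itself, for Mest. The 4-fold criterion was added after these values were seen, and the genes were chosen with earlier results of these data known. The share beside that of all genes is thus a description, not a test. Of 47 other measured imprinted genes, 0 met the criterion.

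**Figure D1:**
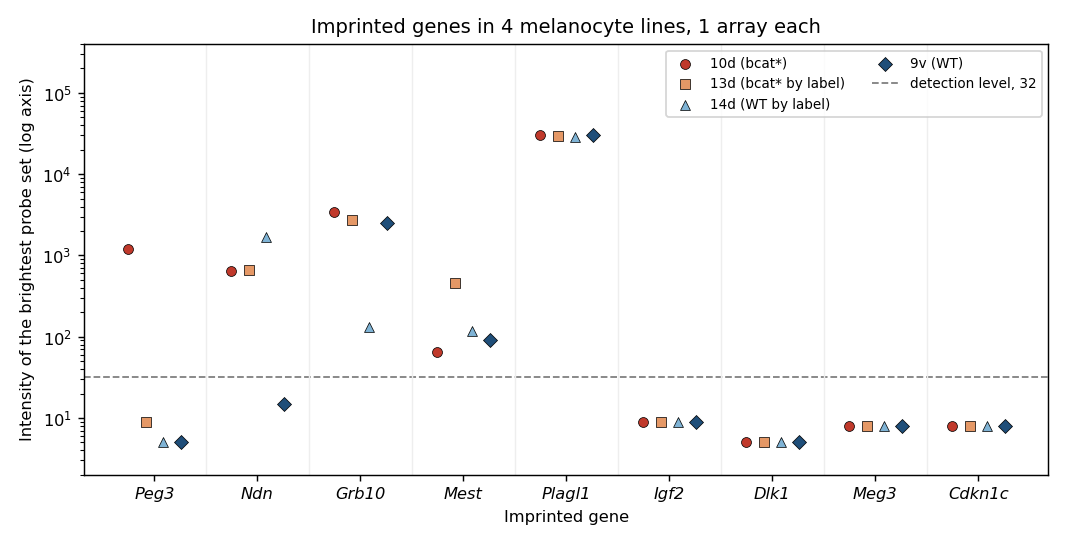
Deposited intensity (log axis) of the brightest probe set of 9 imprinted genes in lines 10d, 13d, 14d and 9v, 1 point per line and 1 array each, with the detection level of 32 dashed. Peg3 is above the level in line 10d and Ndn is below it in line 9v, Grb10 is lowest in line 14d, Mest is highest in line 13d, and Igf2, Dlk1, Meg3 and Cdkn1c lie between 5 and 9 in every line.

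The start-site sequences of Peg3, Ndn and Grb10, which had the largest ranges over lines, are shown with their CpG dinucleotides in capitals. That of Meg3, off in all lines, is shown beside them. CpG methylation was not measured, and the windows are start sites, not mapped imprint control regions. Each window runs 5′ to 3′ on the strand of the gene, from 250 bases before to 50 bases after its start, and comes from RefSeq, build GRCm38.p6. Peg3 (chr7:6730370-6730669, minus strand) was on in line 10d alone, Ndn (chr7:62348027-62348326, plus strand) was off in line 9v alone, Grb10 (chr11:12037371-12037670, minus strand) was on in all lines but lowest in line 14d, and Meg3 (chr12:109540746-109541045, plus strand) was off in all lines.
Peg3: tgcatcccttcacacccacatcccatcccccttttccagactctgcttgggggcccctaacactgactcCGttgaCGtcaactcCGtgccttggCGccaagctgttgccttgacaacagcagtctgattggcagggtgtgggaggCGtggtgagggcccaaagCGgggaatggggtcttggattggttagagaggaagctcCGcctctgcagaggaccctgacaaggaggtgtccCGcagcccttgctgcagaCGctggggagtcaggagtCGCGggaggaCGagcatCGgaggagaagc
Ndn: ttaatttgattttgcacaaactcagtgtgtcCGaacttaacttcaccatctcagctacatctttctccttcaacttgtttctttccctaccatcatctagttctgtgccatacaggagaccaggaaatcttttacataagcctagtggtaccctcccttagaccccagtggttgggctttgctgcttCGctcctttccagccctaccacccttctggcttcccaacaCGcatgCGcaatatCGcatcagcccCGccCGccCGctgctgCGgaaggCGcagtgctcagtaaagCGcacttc
Grb10: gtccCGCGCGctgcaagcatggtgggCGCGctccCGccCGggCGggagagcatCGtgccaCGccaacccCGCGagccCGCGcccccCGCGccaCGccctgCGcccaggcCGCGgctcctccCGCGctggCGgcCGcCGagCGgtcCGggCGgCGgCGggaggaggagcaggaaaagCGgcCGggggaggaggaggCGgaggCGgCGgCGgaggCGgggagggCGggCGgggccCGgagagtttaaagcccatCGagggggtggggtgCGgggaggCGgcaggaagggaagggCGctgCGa
Meg3: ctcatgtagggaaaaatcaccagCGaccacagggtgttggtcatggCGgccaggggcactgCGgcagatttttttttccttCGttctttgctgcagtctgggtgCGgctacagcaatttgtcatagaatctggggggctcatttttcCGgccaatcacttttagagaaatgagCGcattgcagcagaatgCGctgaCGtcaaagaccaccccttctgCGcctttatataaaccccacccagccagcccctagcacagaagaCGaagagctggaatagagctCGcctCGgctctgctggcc
The Peg3 window holds 13 CpG dinucleotides, that of Ndn 11, that of Grb10 45 and that of Meg3 13, beside a median of 7 (quartiles 3 and 20) over 32817 windows of the same length. Grb10 and Meg3 each have another start in RefSeq, not printed, whose windows hold 9 and 1 CpG dinucleotides. The cAMP response element TGACGTCA, a palindrome, stands at bases 73 to 80 of the Peg3 window and at bases 194 to 201 of the Meg3 window, and 1.79% of all windows hold it. The NRF1 core GCATGCGC, searched on both strands, stands at bases 229 to 236 of the Ndn window, against 2.71% of all windows. None of the 15 windows of the 8 genes with an entry holds a Tcf/Lef core written as CTTTGAA or CTTTGAT, or else as CTTTGTA or CTTTGTT, on either strand, the sequence bound by the partners of β-catenin, against 16.9% of all windows. The first motif is thus found both at a gene that was on in 1 line and at a gene that was off in all. These motifs were chosen with the sequences in view, and a match is a description of letters. Sites outside the windows were not searched. Some of the 15 windows share a gene, and those of Mest with close starts overlap, so that they are not independent.

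Peg3, a paternally expressed gene for a zinc-finger protein, was on in line 10d alone. Its brightest probe set (1433924_at) had intensities of 1207, 9, 5 and 5 in lines 10d, 13d, 14d and 9v, so that line 10d was at least 37.7-fold above line 9v. A second probe set had 653 in line 10d and 6 in each other line, and another 555 in line 10d and 7 in each other line. The remaining 2 of the 5 probe sets were at 5 in all lines. Of all genes, 0.440% were on in line 10d alone. Usp29, the paternally expressed gene that faces Peg3 across its start, was at 7 in all lines, and Zim1, its neighbour on the other side, was at 6 in all lines. Both neighbours were thus off in the line in which Peg3 was on. Of 4 measured Schwann cell markers, 1 was on in any line, Pou3f1, also in line 10d alone, with 65, 19, 8 and 7 in lines 10d, 13d, 14d and 9v, and their summed intensity was 125, 45, 33 and 34. The part of such cells in the Peg3 signal was not tested.

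Ndn, which encodes the MAGE-family protein necdin and is paternally expressed from the Prader-Willi region, was on in lines 10d, 13d and 14d and off in line 9v. Its brightest probe set (1435383_x_at) had intensities of 640, 669, 1686 and 15 in lines 10d, 13d, 14d and 9v, at least 20-fold higher in line 10d than in line 9v and at least 52.7-fold higher in line 14d than in line 9v. Of all genes, 0.379% were off in line 9v alone. Of its 8 probe sets, 5 gave signal, and in each of the 5 line 9v was lowest and line 14d highest. A probe set without a cross-hybridization suffix had 538, 439, 1259 and 8 in the same order of lines, and another had 303, 257, 672 and 19. In these 5 probe sets line 14d exceeded line 10d by 2.22-fold to 2.77-fold and line 13d by 2.52-fold to 4.0-fold. One of them had 57 in line 9v, above the detection level, beside 200, 170 and 482 in lines 10d, 13d and 14d, so that the off state of line 9v rests on the other probe sets. The last 3 probe sets were at 3 or 4 in all lines. Magel2, the neighbouring gene of the same family and the same paternal expression, was at 5 in all lines. The summed intensity of the 9 fibroblast markers was 170, 142, 96 and 275 in lines 10d, 13d, 14d and 9v, but 7 of them were off in all lines. The sum mainly followed Col1a2 (80, 24, 17 and 175) and Postn (34, 61, 20 and 38). Both were lowest in line 14d, while Col1a2 was highest in line 9v and Postn in line 13d. The part of fibroblasts in the Ndn pattern was not tested.

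Grb10 encodes an adaptor that binds the insulin and IGF receptors and restrains their signal, and in most mouse tissues it is transcribed from the maternal copy. It was on in all lines and lowest in line 14d. Its brightest probe set (1425458_a_at) had intensities of 3377, 2766, 132 and 2497 in lines 10d, 13d, 14d and 9v. Line 10d was 25.6-fold above line 14d, line 13d was 21.0-fold above line 14d, and line 9v was 18.9-fold above line 14d. A second probe set had 294, 141, 8 and 118, with line 14d again lowest and below the detection level. The last was below the level throughout, with 25, 27, 5 and 13. Lines 10d, 13d and 9v lay within 1.35-fold of each other by the brightest probe set, while by the second line 10d was 2.49-fold above line 9v. All 3 probe sets carry the suffix letter that marks several transcripts of 1 gene.

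Mest, a paternally expressed gene for a protein with a hydrolase fold, had 1 probe set (1423294_at), with intensities of 65, 464, 116 and 90 in lines 10d, 13d, 14d and 9v. Line 13d was 4.0-fold above line 14d and 5.16-fold above line 9v. The other 3 lines lay within 1.78-fold of each other, between 2 and 4 times the detection level. Copg2, a coatomer subunit gene on the other strand beside Mest, ran in another order, with 583, 746, 1698 and 2918 in lines 10d, 13d, 14d and 9v. Klf14, a maternally expressed transcription factor gene of the same cluster, had 2178, 1521, 13 and 13 and was thus on in lines 10d and 13d alone. Mest, Copg2 and Klf14 were therefore each highest in a different line.

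Plagl1, a paternally expressed zinc-finger transcription factor that arrests the cell cycle, was on in all lines at near-equal level in each probe set. Its probe sets did not give 1 level. The brightest, which carries the suffix of possible cross-hybridization, had 30257, 29107, 28343 and 30308 in lines 10d, 13d, 14d and 9v. A second, for several transcripts of the gene, had 1068, 931, 990 and 1188. The third, with neither suffix, was at 5 in every line. The largest ratio between any lines was 1.07 in the first, and line 9v was 1.28-fold above line 13d in the second. Whether Plagl1 is on thus depends on the probe set, but none of the 3 separates the lines by 2-fold.

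**Figure D2:**
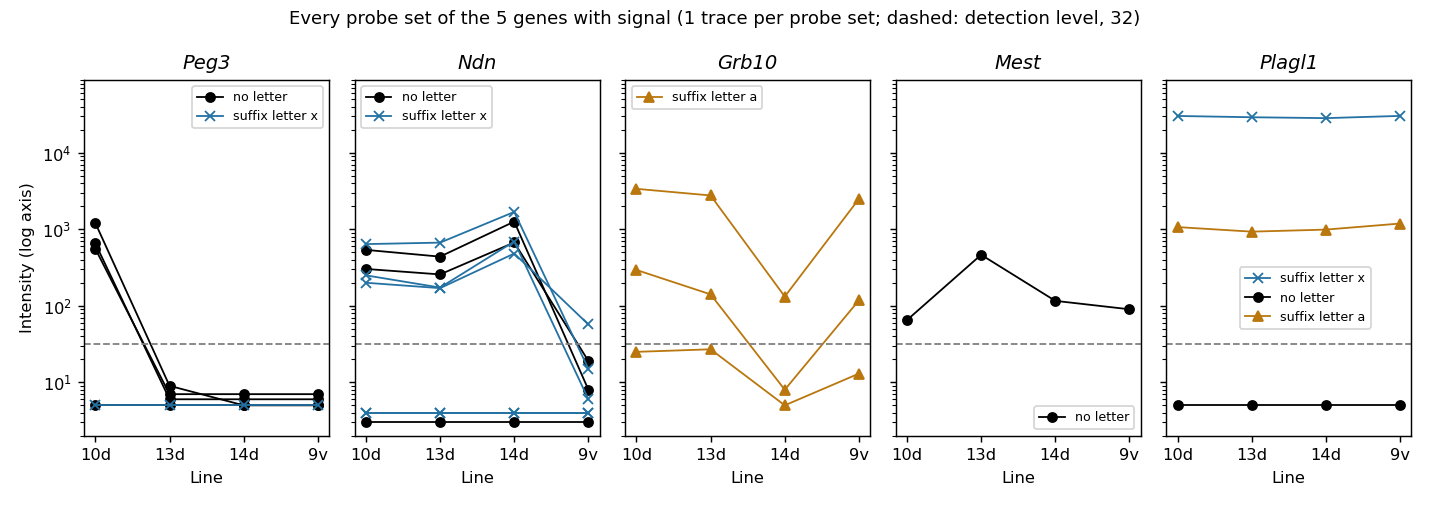
Deposited intensity (log axis) of every probe set of Peg3 (5), Ndn (8), Grb10 (3), Mest (1) and Plagl1 (3) in lines 10d, 13d, 14d and 9v, 1 trace per probe set, with the detection level of 32 dashed and the suffix letter of the probe set name as symbol. The 3 Peg3 traces with signal, the 5 of Ndn and the 3 of Grb10 each share the line that lies farthest below or above the others, with unequal ratios between probe sets, and the 3 of Plagl1 are flat at different levels.

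The remaining genes were off in every line and every probe set. Igf2, the paternally expressed fetal growth factor, had 2 probe sets between 6 and 9. Cdkn1c, a maternally expressed inhibitor of cyclin-dependent kinases, had 1 probe set at 8 in each line. Dlk1, a paternally expressed transmembrane protein gene with EGF-like repeats, had 2 probe sets at 4 or 5, and Meg3, the maternally expressed long noncoding RNA of the same cluster, had 11 probe sets between 4 and 8. No fold is given between lines that are all below the detection level. The relatives of Cdkn1c were on, with 3612, 3093, 7186 and 5399 for Cdkn1a and 1193, 875, 1326 and 1254 for Cdkn1b in lines 10d, 13d, 14d and 9v. Rian and Mirg, noncoding RNAs downstream of Meg3, were at or below 6 in all lines.

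Between line 10d (bcat*) and line 9v (WT), the pair of undisputed genotype, 2 of the 9 genes were at least 2-fold higher in line 10d, Peg3 and Ndn, against 3.94% of all genes. None was at least 2-fold lower, against 5.03% of all genes. Grb10 had a log2 difference of 0.44 and Mest of -0.47, both under the 2-fold threshold. Over all lines, 4 of the 9 genes had a range of at least 2-fold, against 20.8% of all genes. Lines 13d and 14d showed the Peg3 state of line 9v and the Ndn state of line 10d. In the pair of undisputed genotype, Peg3 and Ndn thus differ in the same direction, but neither separates 2 lines from 2.

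The fit of 2 lines labelled bcat* against 2 labelled WT by limma covered the 17423 probe sets at or above 32 in at least 1 line and made no call at a Benjamini-Hochberg adjusted p of 0.05, 0.00% of probe sets, with 1284 at an unadjusted p under 0.05. It used the values as deposited, so that values below 32 entered as measured and the differences given here are not lower bounds. With values raised to 32, limma called 0 probe sets as well. Of the 13 probe sets of the imprinted genes that entered, 0 had an unadjusted p under 0.05. The 3 of Peg3 entered only through line 10d, the line in which they are high, so that their differences rest on that line. With the genotypes of the methods text, again 0.00% were called, 670 probe sets had an unadjusted p under 0.05, and none of the 13 did. Peg3 by its brightest probe set had a log2 difference, bcat* minus WT, of 4.38 ± 2.49 (SE, 2 lines each, limma adjusted p = 0.736) by the labels and 3.53 ± 2.84 (limma adjusted p = 0.955) by the methods text. Ndn had 2.04 ± 2.36 (limma adjusted p = 0.816) by the labels and 3.37 ± 1.99 (limma adjusted p = 0.955) by the methods text. Grb10 had 2.41 ± 1.48 (limma adjusted p = 0.740) by the labels and -1.98 ± 1.65 (limma adjusted p = 0.955) by the methods text, so that its sign turned with the reading. Mest likewise had 0.77 ± 1.02 (limma adjusted p = 0.841) by the labels and -1.23 ± 0.93 (limma adjusted p = 0.955) by the methods text. An exact permutation test of 2 lines against 2 cannot give a two-sided p below 0.33.

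**Figure D3:**
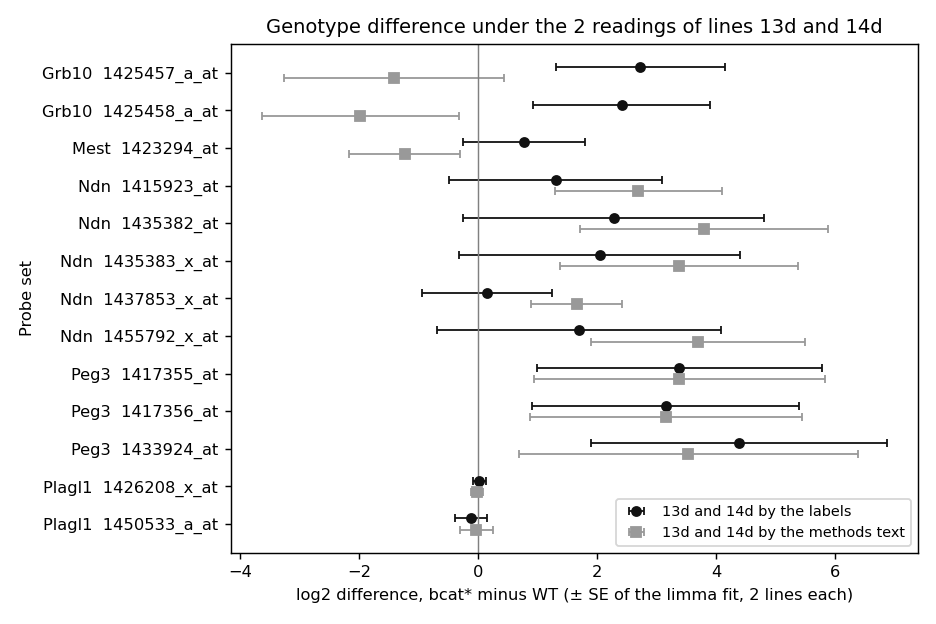
The log2 difference, bcat* minus WT, with the SE of the limma fit for 13 probe sets of 5 imprinted genes, with lines 13d and 14d by the labels (black circles) and by the methods text (grey squares). Peg3 and Ndn lie above 0 under both readings, Grb10 and Mest lie on opposite sides of 0, and Plagl1 lies near 0.

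A wider list of 57 imprinted genes, of which 47 had a probe set of their own, gives the setting of these values. Of the 47, 16 were on in all lines, 28 off in all lines and 3 on in some and off in others, and 8 had a range of at least 2-fold. Snrpn is among the 28 by the probe set listed with it alone, although probe sets shared with Snurf gave signal. None of the 47 had 1 line at least 4-fold from each other line. Of 11 measured genes of the cluster of Igf2 and Cdkn1c, 5 were off in all lines, with Ins2, Ascl2 and Phlda2 at or below 9 beside Cd81, a tetraspanin gene at 18893, 21390, 26685 and 21529 in lines 10d, 13d, 14d and 9v. Kcnq1ot1, the noncoding RNA of the Cdkn1c cluster, lay at the detection level with 38, 41, 27 and 22, and Slc22a18, next to Cdkn1c, had 30, 16, 6 and 43. Igf2r, the maternally expressed receptor that clears Igf2, was on in all lines with 467, 256, 70 and 270 and was lowest in line 14d, as Grb10 was. Sgce, a paternally expressed sarcoglycan gene, had 1218, 1649, 5172 and 3927, while Peg10, which shares its control region, was at 7 in all lines. Osbpl5, an oxysterol-binding protein gene, had 95, 174, 541 and 397. Gnas, the gene of the stimulatory G protein subunit, had 28410, 29523, 36209 and 32558 by its brightest probe set.

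**Figure D4:**
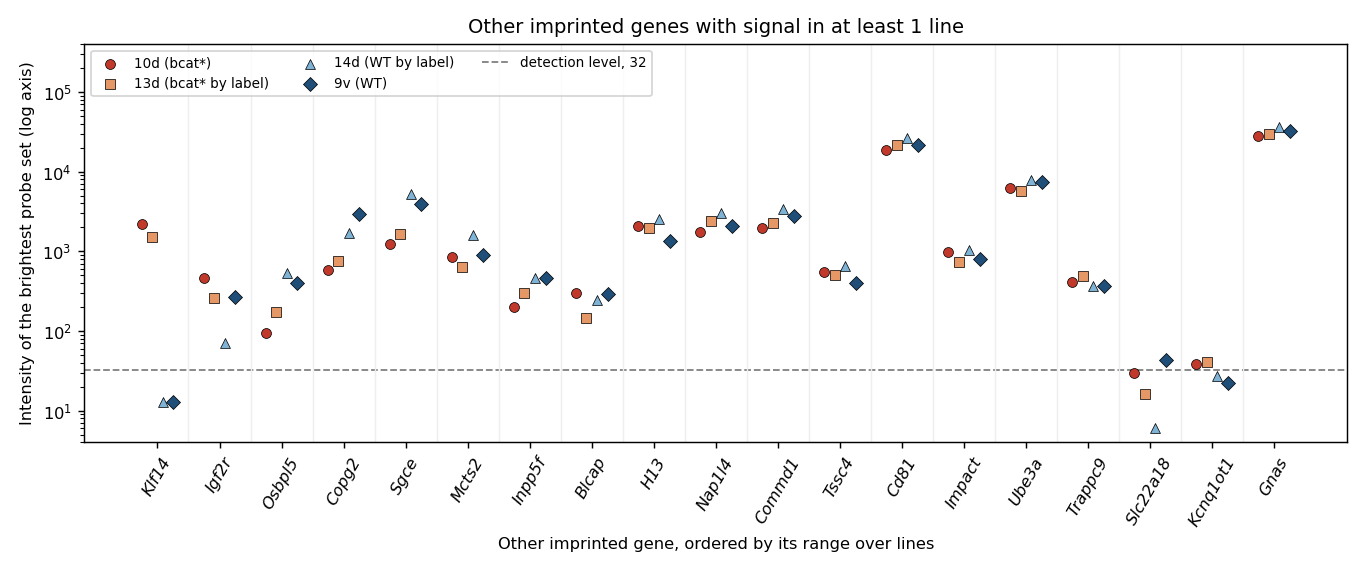
Deposited intensity (log axis) of the brightest probe set of the 19 other imprinted genes that were on in at least 1 of lines 10d, 13d, 14d and 9v, 1 point per line, ordered by range, with the detection level of 32 dashed. Klf14 has the widest range, with lines 10d and 13d at 2178 and 1521 and lines 14d and 9v at 13, and 11 of the 19 have a range under 2-fold.

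The genes that set and keep the imprint had the same on or off state in all 4 lines. Of 23 measured genes of DNA methylation and imprint maintenance, 16 were on in every line and 7 in none, and the ranges of 6 reached 2-fold and of 0 reached 4-fold. Dnmt1, the methyltransferase that copies methylation after replication, had 591, 1346, 862 and 886 in lines 10d, 13d, 14d and 9v. Ezh2, the catalytic subunit of the Polycomb repressive complex, had 1150, 2799, 1999 and 3271. Dnmt3a, a methyltransferase that acts on unmethylated DNA, was near the detection level with 32, 37, 100 and 68, and Dnmt3l and Zfp57, which act on imprints in germ cells and early embryos, were at or below 6. Of 16 measured genes of the IGF axis, 4 were on in all lines, 9 off in all and 3 mixed. Igf1r, the receptor through which Igf2 acts, was on with 254, 502, 670 and 496. The mixed genes encode binding proteins of IGF, with 311, 113, 6 and 6 for Igfbp7, 143, 36, 146 and 9 for Igfbp3 and 46, 17, 31 and 42 for Igfbp4. No probe set of these lists was called by limma under either reading of the genotypes.

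The patterns of the 3 genes with the largest range were set against those of 18192 other genes, by the Euclidean distance of their 4 log2 values, raised to the detection level and centred on their own mean. Closest to Ndn was Prdx4, a peroxiredoxin gene of the endoplasmic reticulum, with 3076, 2492, 6462 and 106 in lines 10d, 13d, 14d and 9v (distance 0.39). It was followed by Pycard (distance 0.86) and Afap1l2 (distance 1.06). Closest to Peg3 was Snhg16, a host gene of small nucleolar RNAs, with 1136, 21, 43 and 22 (distance 0.40), followed by Usp18 (distance 0.56) and Snhg12 (distance 0.94). Closest to Grb10 was Dpysl3, with 529, 496, 7 and 638 (distance 0.59), followed by Cd59a (distance 0.77) and Pfkp (distance 0.84). With 4 lines such likeness is a description of these arrays.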

How the data were processed

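Total RNA of 4 melanocyte lines from mice was hybridised to Affymetrix arrays, 1 for each line. For every probe set the authors deposited an intensity, which the submitters' processing notes credit to GCRMA. The version of GCRMA is not given in the sources used here. All deposited values are whole numbers of 2 or more and were read as linear, and their rounding makes the ratios of dim probe sets coarse. Median centring would raise line 10d by the difference between its median log2 value of 2.81 and the 3.00 of the other lines.

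The platform annotation lists 1 gene for 34945 probe sets, several for 932 and none for 9160. Of those with 1 gene, 34741 were found in RefSeq (GRCm38.p6) by Entrez number. Every probe set of a member was used. Genes of the wider lists were named where mixed or with a range of at least 4-fold, and otherwise as examples chosen with their values in view. Neighbours are the nearest measured genes in RefSeq order. Genotype was fitted with limma 3.58.1 (lmFit, eBayes with trend) on log2 values of probe sets at 32 or more in at least 1 line. These values were not raised to 32 in the main fit. Benjamini-Hochberg adjustment was over all probe sets tested. The code of the fit was checked on simulated data with planted changes and low noise, which does not measure its power on these arrays. The replicates are separate lines, so that p-values measure the spread between lines, and 4 arrays limit the precision. Alternatives were other detection levels, probe set summaries, normalizations, filters and genotype readings. The members and lists were chosen with earlier results of these data known. Python 3.11.15, NumPy 2.4.6, pandas 2.3.3, Matplotlib 3.10.9 and R 4.3.3 were used.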

Additional observations from a re-analysis of the deposited data

Results flagged for a closer look

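By the labels, each sex is represented by 1 bcat* and 1 WT line, and the difference between them ran in opposite directions in the male and the female pair for Ndn and Mest, whose differences were at least 1.2-fold in each pair. For Ndn the log2 difference was 4.32 for line 10d minus line 9v (male) and -1.33 for line 13d minus line 14d (female). For Mest it was -0.47 for line 10d minus line 9v and 2.0 for line 13d minus line 14d. With the genotypes of the methods text, the female pair runs the other way, and line 14d minus line 13d was 1.33 for Ndn and -2.0 for Mest. Both then take the direction of the male pair, which the swap alone fixes for any gene with opposite pairs. Grb10 goes the other way, with 0.44 for line 10d minus line 9v and 4.39 for line 13d minus line 14d. Its pairs run alike by the labels and in opposite directions by the methods text. The difference between the pairs was not tested, since 1 line per sex and genotype leaves no residual spread, and sex, genotype and line cannot be told apart in it.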

How the results depend on the processing

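The number of imprinted genes that were on in some lines and off in others was 2 as reported and 1 where any probe set at or above the level made a gene on, which put Ndn on in line 9v. It was 2 at detection levels of 16 and 64 and under the other normalizations. It was 3 with the log2 mean of a gene's probe sets, where Grb10 was off in line 14d, and 3 at the highest level tried, where Mest was on in line 13d alone. Without suffixed probe sets Plagl1 was off in all lines and Grb10 gave no value. The number of genes at least 2-fold higher in line 10d than in line 9v became 1 when the log2 values of a gene's probe sets were averaged, where the log2 difference of Ndn was 0.98 and that of Peg3 1.67, since this mean takes in probe sets without signal. The number with a 2-fold range and the number lower in line 10d moved by no more than 1.5 times. With no filter on low values, limma called 754 probe sets, 707 of them under the detection level in all lines, and 1 of Meg3, with intensities of 6, 6, 7 and 7 in lines 10d, 13d, 14d and 9v, a rounding step. Leaving out each line in turn left a lone line of 1 genotype, assumed to vary like the others, so that no result is drawn from these fits. Of 142 values of single genes under alternatives, 125 moved by less than 1.5-fold, 17 moved by more, all of Peg3, Ndn or Grb10, and 0 changed sign past the 2-fold threshold. The 125 include all values of Igf2, Dlk1, Meg3 and Cdkn1c. These were 0 under every alternative because the genes were off in all lines, and so say nothing about stability. The labels carry no replicate numbers that pair lines. With labelled sex as an additive term, which sets 1 bcat* line against 1 WT line within each sex, limma called 0 of 17423 probe sets, and 1 probe set of the imprinted genes had an unadjusted p under 0.05, with a smallest adjusted p of 0.679 among them. Dim signals and the number of arrays limit what off states can show.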

Other observations

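Probe sets listed with both Snurf and Snrpn, which are read from 1 paternally expressed transcript of the Prader-Willi region that also holds Ndn, name neither gene and entered no count. Of the 6, 4 gave signal. One had intensities of 969, 497, 869 and 652 in lines 10d, 13d, 14d and 9v, and another had 848, 318, 878 and 556. The others fell under the detection level in line 13d, with 915, 13, 911 and 445 for one and 767, 28, 794 and 474 for the other. Line 13d was lowest in all 4, while line 9v, in which Ndn was off, was at or above 445. The probe set of Snrpn alone was at 6 in all lines, so that Snrpn was counted as off. These probe sets were singled out after their values were seen.

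Of the other relatives of the imprinted genes, Maged1, a gene of the MAGE family like Ndn, had intensities of 1338, 2684, 3292 and 4275 in lines 10d, 13d, 14d and 9v. Grb7 and Grb14, the other adaptors of the family of Grb10, were at or below 12 in all lines. Plagl2, of the family of Plagl1, had 18, 19, 38 and 24, and Notch2, a receptor of the pathway to which Dlk1 is related, had 306, 262, 365 and 287. Of 12 measured genes on this list, 4 were on in all lines, 7 in none and 1 in line 14d alone.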
